A study of Homo sapiens with 9 samples.

Results

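The 10 genes described here are PC, PCK1, PCK2, GOT1, FBP1, G6PC1 (older symbol G6PC), SLC37A4, PPARGC1A, TAT and IGFBP1, which serve gluconeogenesis or answer to cyclic AMP (cAMP) during fasting. They were looked up by symbol, through Ensembl identifiers, among 63677 identifiers in the count files, and all 10 had a row. Of these, 9 reached 1 CPM, a count scaled to library size, in at least 2 libraries, as did 18237 genes in all, and could be tested. G6PC1 did not, with 7 counts over the series. The data are RNA-seq read counts from HuH-7, an established line grown from a human hepatocellular carcinoma, with total RNA depleted of ribosomal RNA and 1 library per condition. One library came from untreated cells (the control), 1 from cells given 10 mM acetaminophen, 1 from cells given exosomes from 1 ml of serum and 1 from cells given both. The labels give this amount of serum per number of cells, and the number as written cannot be read with certainty. Another came from cells given 2 mM caffeine and another from cells given 2 mM caffeine with 10 mM acetaminophen. The last 3 came from cells given 5 µM arsenic, 15 µM arsenic, or 5 µM arsenic with 5 µM copper. For how long the cells were exposed, where the serum came from and which compounds of arsenic and copper were used is not given in the sources used here. Being a tumour line, HuH-7 is a model of a hepatocyte without the hormones of an intact liver.

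No condition was replicated, so each level below is 1 library and its interval covers counting error alone. Gene counts per library ran from 658725 (acetaminophen with exosomes) to 8227906 (caffeine), and 3 counts were worth 0.351 to 3.82 CPM after scaling by the trimmed mean of M-values (TMM). All levels below are in this TMM-scaled CPM. Hepatocyte and hepatoma markers had counts for 12 of 12 genes in every library, with sums from 10260 CPM (15 µM arsenic) to 29680 CPM (acetaminophen) and 24210 CPM in the control. Markers of other cell types had counts for 4 to 7 of 12 genes, and PECAM1 and PPBP were at 0 in all 9 libraries. LYZ, on the same list, held most of the sum, with 164.0 of 175.6 CPM in the control. It ranged from 26.2 CPM (15 µM arsenic) to 271.6 CPM (acetaminophen). In the acetaminophen and 5 µM arsenic libraries the level of a gene, set against its mean over libraries, fell with its GC content (Pearson r across 17741 genes -0.505 and -0.4, against -0.111 to 0.327 elsewhere), and small nucleolar RNAs took 11.7% and 36.1% of their counts against 3.49% to 8.49% elsewhere. PCK2 and PC transcripts are 61.6% and 61.1% G or C, so ratios that involve these 2 libraries are given below with and without this trend. In a bulk library, fewer cells of a kind and less RNA per cell cannot be told apart.

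Gluconeogenesis makes glucose from lactate, amino acids and glycerol, and the liver relies on it in fasting. Pyruvate carboxylase (PC) makes oxaloacetate in mitochondria, and a phosphoenolpyruvate carboxykinase turns it into phosphoenolpyruvate, PCK2 in mitochondria and PCK1 in the cytosol. GOT1 is the cytosolic aspartate aminotransferase of the malate-aspartate shuttle, FBP1 is fructose-1,6-bisphosphatase, and the glucose-6-phosphatase catalytic subunit G6PC1 works with the glucose-6-phosphate transporter SLC37A4 to release glucose. Glucagon acts through cAMP, protein kinase A and the factor CREB to switch on PCK1, G6PC1 and the coactivator PPARGC1A, and insulin opposes this through FOXO1. TAT, a tyrosine aminotransferase, and IGFBP1, a secreted binding protein for insulin-like growth factors, are further liver genes that respond to cAMP, glucocorticoids or insulin.

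PC was the most abundant of the 10 genes per kilobase of exon in every library, and G6PC1 was the rarest by total count. The sequence before their start sites is shown because the pair marks both ends of the range and because cAMP response elements are a textbook feature of gluconeogenic promoters. RefSeq windows on GRCh38.p14 were matched for 7 of the 10 genes, and where a gene has several annotated starts the one farthest upstream was used. Each run below is the 250 bases before the start, 5′ to 3′ on the gene's strand, with matches in capitals. PC lies on the minus strand (chr11:66958384-66958633) and G6PC1 on the plus strand (chr17:42900549-42900798).
PC: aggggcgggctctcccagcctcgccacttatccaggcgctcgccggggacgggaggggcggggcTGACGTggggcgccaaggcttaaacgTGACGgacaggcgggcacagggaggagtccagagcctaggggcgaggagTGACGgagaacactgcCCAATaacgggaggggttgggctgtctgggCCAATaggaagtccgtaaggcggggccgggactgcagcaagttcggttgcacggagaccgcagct
G6PC1: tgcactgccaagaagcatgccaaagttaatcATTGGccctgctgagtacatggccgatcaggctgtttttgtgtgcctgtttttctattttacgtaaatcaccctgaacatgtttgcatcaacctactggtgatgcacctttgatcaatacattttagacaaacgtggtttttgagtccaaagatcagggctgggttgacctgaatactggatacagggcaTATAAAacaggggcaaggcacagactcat
The motifs searched on both strands were TGACG, a part of the cAMP response element, its core ACGTCA, the forkhead motif TGTTTAC, the insulin response element core CAAAACA, the TATA box as TATAAA and the CCAAT box. The PC window held 3 copies of TGACG, starting 186, 160 and 111 bases before the start, and the copy at 186 also reads ACGTCA on the other strand. It held 2 copies of CCAAT. The G6PC1 window held TATAAA 29 bases before the start and a reversed CCAAT, and no exact match to the other motifs. Over 35116 RefSeq windows of the same length, 21.2% held TGACG, 7.1% ACGTCA, 10.7% TATAAA and 32.0% CCAAT. PPARGC1A and GOT1 windows held 1 TGACG each, and those of PCK2, FBP1 and SLC37A4 held none. PC has 3 windows and SLC37A4 and PPARGC1A 2 each, of which only the farthest upstream was searched. For PPARGC1A that window (chr4:24472906-24473155) lies well upstream of the gene's 5′ end in the GENCODE 29 annotation (position 23904089). Its other promoter is not described here. A match is a stretch of letters and not a measured binding site. Only these exact letters were searched, so a window without a match may still hold a variant of the element.

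**Figure D1:**
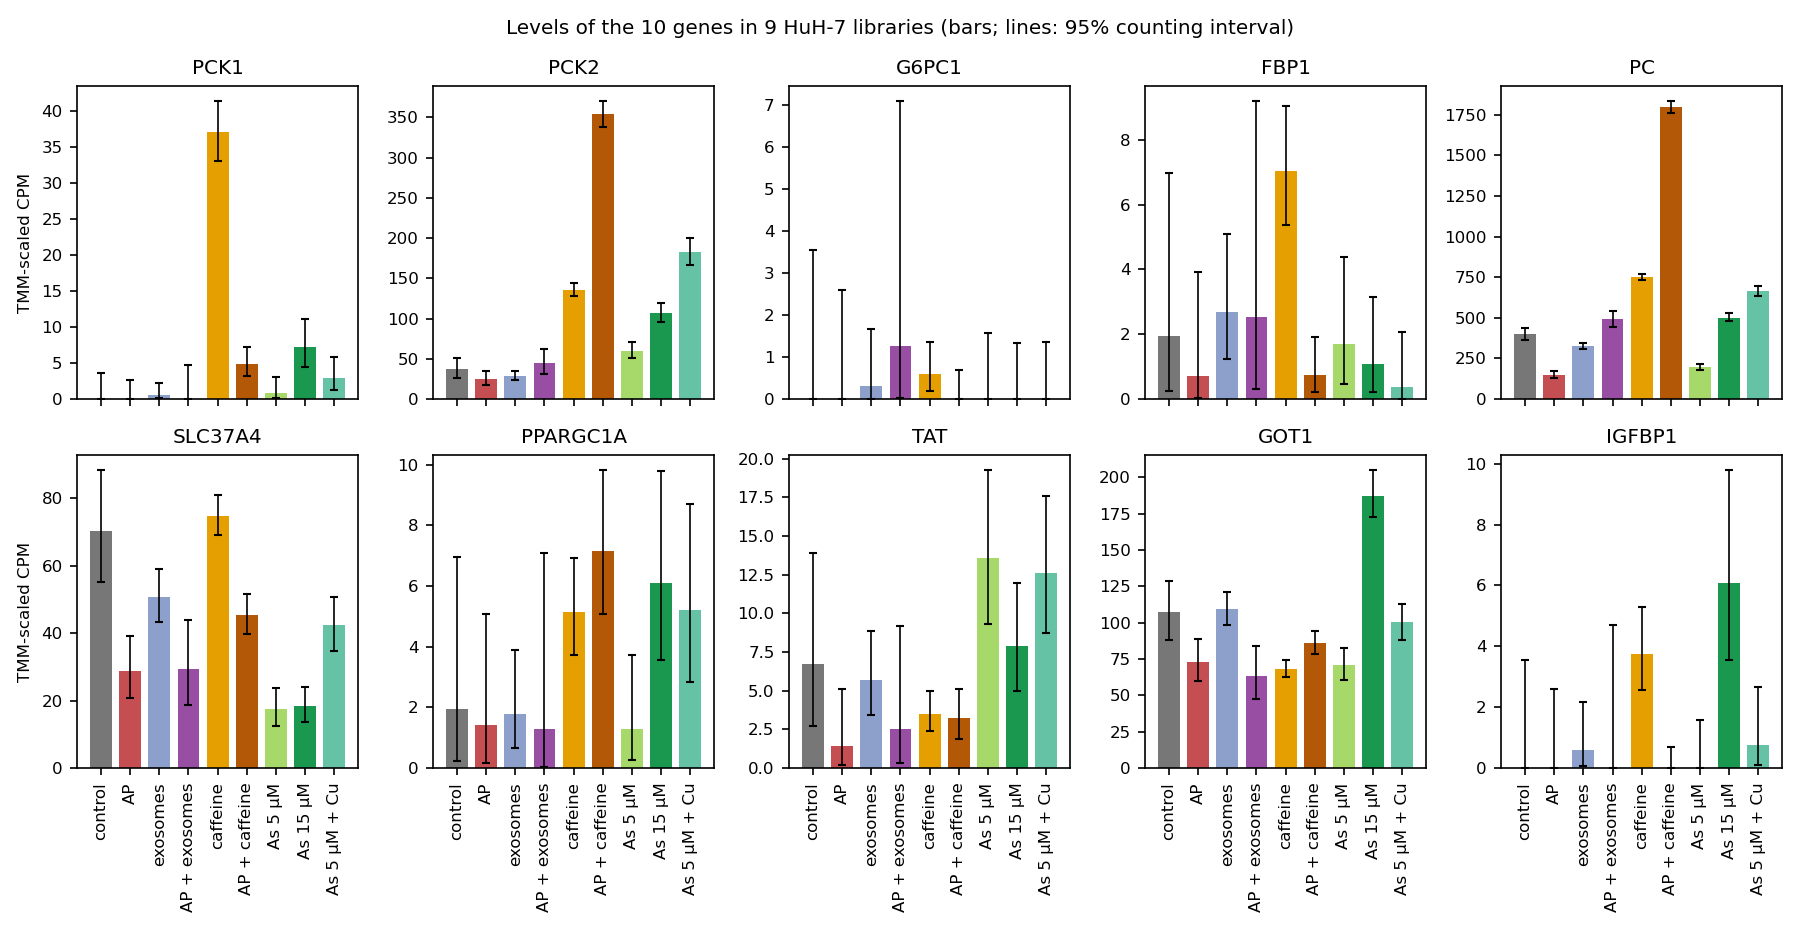
TMM-scaled CPM (vertical axes, linear and starting at 0, scaled separately for each gene) of the 10 genes in the 9 libraries (horizontal axes; AP, acetaminophen; As, arsenic; Cu, copper). Bars are single libraries and lines are exact 95% counting intervals; PCK1 and FBP1 are highest with caffeine, PCK2 and PC with acetaminophen plus caffeine, and GOT1 with 15 µM arsenic.

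PC stood at 398.5 CPM in the control, 148.8 with acetaminophen, 324.3 with exosomes, 492.2 with both, 753.8 with caffeine and 1800 with acetaminophen and caffeine. It stood at 198.6 CPM with 5 µM arsenic, 501.7 with 15 µM and 664.0 with arsenic and copper. Both caffeine libraries were above the other 7, and the acetaminophen and 5 µM arsenic libraries were the 2 lowest. Of the 8 steps between neighbours in that order, 7 exceeded their counting interval. The exception was 15 µM arsenic against acetaminophen with exosomes. PC shares exon sequence with LRFN4 on the other strand, and whether the counting used strand is not given.

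PCK2, the mitochondrial carboxykinase, stood at 37.6 CPM in the control, 25.3 with acetaminophen, 28.7 with exosomes and 44.5 with both. It was at 135.7 CPM with caffeine and 354.3 with acetaminophen and caffeine. With arsenic it was at 60.0 CPM (5 µM), 106.5 (15 µM) and 183.2 (with copper). All 5 libraries with caffeine or arsenic were therefore above the other 4. The last 4 steps down the order, among 5 µM arsenic and the libraries without caffeine or arsenic, did not exceed their counting intervals.

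PCK1, the cytosolic carboxykinase and the best known cAMP target of the set, was highest with caffeine and had 2 counts or fewer in 5 of the 9 libraries. It had 0 counts in the control, 0 with acetaminophen, 2 with exosomes and 0 with both. It had 317 counts with caffeine (37.1 CPM), 26 with acetaminophen and caffeine (4.90 CPM), 2 with 5 µM arsenic (0.851 CPM), 20 with 15 µM (7.17 CPM) and 8 with arsenic and copper (2.97 CPM). Taking 3 counts as the limit that a count of 0 allows, the control level was at most 2.89 CPM. Caffeine alone exceeded the next library, 15 µM arsenic, and no other step in the order exceeded its counting interval.

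GOT1 varied least, 2.95-fold from lowest to highest. It stood at 107.1 CPM in the control, 73.0 with acetaminophen, 109.3 with exosomes, 63.6 with both, 68.3 with caffeine and 86.3 with acetaminophen and caffeine. It stood at 71.0 CPM with 5 µM arsenic, 187.5 with 15 µM and 100.2 with arsenic and copper. Only the step from 15 µM arsenic down to exosomes exceeded its counting interval. GOT1 shares exon sequence with AL391684.1 on the other strand.

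Of the last enzymes of the pathway, FBP1 and G6PC1 were scarce. FBP1 had 60 counts with caffeine (7.02 CPM) and 1 to 9 counts in each of the other 8 libraries (0.371 to 2.69 CPM). Caffeine was the 1 library that exceeded its neighbour. G6PC1 had 5 counts with caffeine, 1 with exosomes, 1 with acetaminophen and exosomes and 0 in the other 6, so none of its differences was detectable at this depth. By the same limit of 3 counts, 0 counts with acetaminophen and caffeine allow up to 0.565 CPM. FBP1 shares exon sequence with PCAT7 on the other strand.

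The transporter SLC37A4 had at least 23 counts in every library. It stood at 70.4 CPM in the control, 28.8 with acetaminophen, 50.8 with exosomes and 29.3 with both. Caffeine had 74.9 CPM and acetaminophen with caffeine 45.4. Arsenic had 17.4 CPM at 5 µM, 18.3 at 15 µM and 42.3 with copper. The 3 libraries with acetaminophen were below all 3 of their counterparts without it, and 15 µM and 5 µM arsenic were the 2 lowest of all 9. Hepatocyte and hepatoma markers were lower with both agents in the additive model described below, 12 of 12 with acetaminophen (median log2 fold change -0.471) and 12 of 12 with arsenic (median -1.11), with 0 called for either. Single libraries did not all share these signs: ALB stood at 12610 CPM with acetaminophen and 10830 with 5 µM arsenic against 6790 in the control. By the rule for library pairs given below, 3 of 12 with acetaminophen and 7 of 12 with 5 µM arsenic stood apart from the control, all lower. Over all genes 25.2% and 31.4% stood apart in these pairs. The part of these markers in the SLC37A4 levels was not tested. SLC37A4 overlaps exons of TRAPPC4 on the other strand.

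PPARGC1A, TAT and IGFBP1 were low. PPARGC1A had 1 to 6 counts in the control, acetaminophen, exosome and combined libraries (1.27 to 1.93 CPM) and 3 counts with 5 µM arsenic (1.28 CPM). It had 44 counts with caffeine (5.15 CPM), 38 with acetaminophen and caffeine (7.16 CPM), 17 with 15 µM arsenic (6.10 CPM) and 14 with arsenic and copper (5.19 CPM). The 2 caffeine libraries thus lay above the 4 libraries without caffeine or arsenic.

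TAT had 7 counts in the control (6.75 CPM), 2 with acetaminophen (1.40 CPM), 19 with exosomes (5.67 CPM) and 2 with both (2.54 CPM). It had 30 counts with caffeine (3.51 CPM) and 17 with acetaminophen and caffeine (3.20 CPM). It had 32 counts with 5 µM arsenic (13.6 CPM), 22 with 15 µM (7.89 CPM) and 34 with arsenic and copper (12.6 CPM), which placed all 3 arsenic libraries above the other 6. No single step in its order exceeded the counting interval. TAT-AS1 lies over it on the other strand.

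IGFBP1 had counts in 4 libraries: 2 with exosomes, 32 with caffeine (3.74 CPM), 17 with 15 µM arsenic (6.10 CPM) and 2 with arsenic and copper (0.742 CPM). The control, at 0, allows up to 2.89 CPM by that limit. The order of caffeine and 15 µM arsenic is within counting error.

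Conditions were compared with an additive edgeR quasi-likelihood model over all 9 libraries, with terms for acetaminophen, exosomes, caffeine and arsenic, so that departures from the model served as the spread. The 1 arsenic term covers both doses and the library with copper, so differences among those 3 libraries are part of that spread. Library pairs were also compared directly. A gene was called apart in a pair when its ratio was at least 2 in either direction and the exact 95% counting interval of the ratio left out 1, which compares 2 libraries and not 2 conditions. Several pairs share the control, the acetaminophen or the 5 µM arsenic library.

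**Figure D2:**
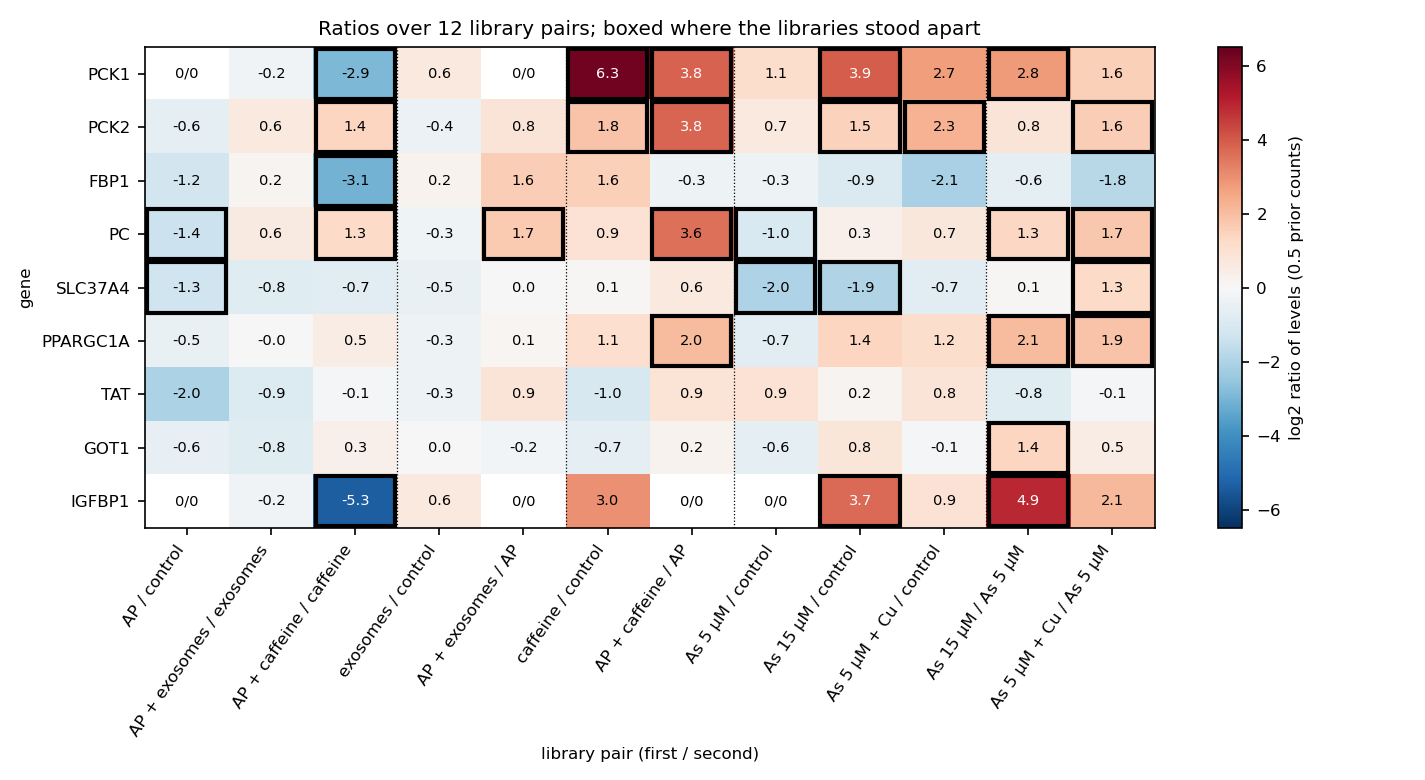
log2 ratio of TMM-scaled levels with 0.5 prior counts (colour and printed value) for the 9 tested genes (rows) in 12 library pairs (columns, first library over second; AP, acetaminophen; As, arsenic; Cu, copper). Black boxes mark pairs that stood apart and 0/0 marks pairs without counts; PCK1 and PCK2 are boxed as higher in both caffeine pairs, and SLC37A4 as lower in 2 of the 3 arsenic pairs with the control.

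Caffeine, an adenosine receptor antagonist that at high concentration also inhibits the phosphodiesterases that break down cAMP, came with the highest levels of PCK1, PCK2, PC, FBP1, SLC37A4 and PPARGC1A, alone or with acetaminophen. The top place was within counting error for SLC37A4 (1.06-fold of the control, 0.834 to 1.37) and for PPARGC1A. Against the control taken at 3 counts, PCK1 was 12.8-fold higher, and the exact lower 95% limit of its ratio was 10.4. PCK2 was 3.61-fold higher than the control (95% interval 2.62 to 5.10). These 2 of 9 genes stood apart, where 20.2% of all tested genes did. PC was 1.89-fold higher (1.71 to 2.09), short of 2-fold. FBP1 at 3.64-fold (0.964 to 30.7) and PPARGC1A at 2.67-fold (0.696 to 22.7) were not resolved from the control, which had 2 counts of each. GOT1 and TAT were at 0.638 (0.520 to 0.789) and 0.520 (0.224 to 1.40) of the control.

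On an acetaminophen background PCK2 and PC had larger ratios with caffeine, with no term for this difference called. The PCK1 ratios on the 2 backgrounds are lower bounds and cannot be ordered, and the FBP1 intervals overlap. PCK2 was 14.0-fold higher (10.1 to 20.1), PC 12.1-fold higher (10.6 to 13.9), PPARGC1A 5.10-fold higher (1.32 to 43.6) and PCK1 at least 2.33-fold higher. FBP1 was at 1.07-fold (0.106 to 52.9) and IGFBP1 had no counts in either library. These 4 of 9 stood apart, against 33.8% of all genes. PCK1 and PCK2 stood apart as higher in both caffeine pairs, as 3.59% of all genes did. With the GC and length trend removed, the same 4 genes stood apart, with log2 ratios of 2.57 for PCK2 and 2.35 for PC in place of 3.79 and 3.59. Between the 2 libraries with caffeine and the 4 without caffeine or arsenic, PCK1, PCK2, PC and PPARGC1A did not overlap (4 of 9 higher, against 15.1% of all tested genes).

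In the additive model, 7 of the 9 genes were higher with caffeine and 2 lower, with a median log2 fold change of 1.88 against 0.121 over all genes. None of the 9 was called at an adjusted p under 0.05, where 0.0823% of all genes were called, and 3 of the 9 had an unadjusted p under 0.05. Log2 fold changes were 8.85 for PCK1 (SE 1.97, edgeR adjusted p 0.0676), 2.81 for PCK2 (SE 0.767, adjusted p 0.186) and 2.15 for PC (SE 0.876, adjusted p 0.584). The PCK1 value rests on 3 libraries without a count and is no bound. DESeq2 called 1 of the 9, PCK2 (log2 fold change 2.68, adjusted p 0.0436), with 0.28% of all genes called, gave PCK1 an adjusted p of 0.0744 and gave IGFBP1 none. Over the alternatives tried, the edgeR and DESeq2 adjusted p ran from 0.00016 to 0.845 for PCK1 and from 0.00543 to 1 for PCK2. In the 6 libraries without arsenic both were called by edgeR, PCK1 at an adjusted p of 0.00016 and PCK2 at 0.00543. Left out alone, the 5 µM arsenic library gave edgeR adjusted p of 0.000694 for PCK1 and 0.00763 for PCK2, and the 15 µM arsenic library 0.00143 and 0.0248. PCK1 alone was called without the library of arsenic with copper (adjusted p 0.0306) or that of acetaminophen with exosomes (adjusted p 0.0468).

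With acetaminophen added to caffeine, the 2 carboxykinases differed in opposite directions. PCK1 went from 37.1 to 4.90 CPM, 7.57-fold lower (5.07 to 11.8), while PCK2 went from 135.7 to 354.3 CPM, 2.61-fold higher (2.43 to 2.81). FBP1 was 9.31-fold lower (3.45 to 35.3), IGFBP1 at least 6.62-fold lower, and PC 2.39-fold higher (2.31 to 2.47). With 2 higher and 3 lower, 5 of 9 stood apart, against 25.6% of all genes. With the GC and length trend removed, PC (log2 ratio 0.89) no longer passed 2-fold and the other 4 did. SLC37A4 then lay at the 2-fold limit (log2 ratio -0.997).

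Acetaminophen, the analgesic whose overdose injures hepatocytes, gave a different picture without caffeine. Against the control, PC was 2.68-fold lower (2.26 to 3.17) and SLC37A4 2.45-fold lower (1.65 to 3.68), so 2 of 9 stood apart, against 25.2% of all genes. This is a pair with the acetaminophen library, and with the trend removed the log2 ratios shrank from -1.42 to -0.65 for PC and from -1.28 to -0.81 for SLC37A4, neither past 2-fold. On exosomes, 0 of 9 stood apart (10.4% of all genes), and PC was 1.52-fold higher (1.35 to 1.71). SLC37A4 was 1.74-fold lower (1.12 to 2.81) on exosomes and 1.65-fold lower (1.42 to 1.92) on caffeine, so it was lower in all 3 pairs with intervals clear of 1. SLC37A4 and TAT were the 2 genes whose 3 libraries with acetaminophen lay below the 3 without (7.24% of all tested genes did so). In the model, 0 of 9 genes were called by edgeR (0.0219% of all genes) and 0 by DESeq2 (0.269%, with no adjusted p for IGFBP1), with 3 genes higher and 6 lower and a median of -0.93 against -0.037 over all genes. By edgeR, 2 had an unadjusted p under 0.05, PCK1 at -2.90 (adjusted p 0.703) and IGFBP1 at -6.01 (adjusted p 0.710), and both rest on the caffeine pair. For SLC37A4 the log2 fold change was -0.93 (SE 0.557, adjusted p 1).

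Serum exosomes came with little difference in these genes. Against the control 0 of 9 stood apart (5.01% of all genes), and PCK2 was at 0.762 of the control (0.520 to 1.13), PC at 0.814 (0.726 to 0.914), SLC37A4 at 0.721 (0.545 to 0.962) and GOT1 at 1.02 (0.823 to 1.27). Added to acetaminophen, exosomes came with 1 of 9 apart (19.1% of all genes), PC at 3.31-fold (2.79 to 3.93). With the trend removed its log2 ratio went from 1.72 to 0.92. The model called 0 of 9 by edgeR or DESeq2, and 0% of all genes by either, with 0 of the 9 and 113 of all genes at an unadjusted p under 0.05 in edgeR and 82 of all genes in DESeq2.

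Arsenic gave different pictures at its 2 doses. At 5 µM, 2 of 9 genes stood apart from the control (31.4% of all genes), both lower: SLC37A4 4.04-fold (2.72 to 6.07) and PC 2.01-fold (1.75 to 2.29). With the trend removed PC was at a log2 ratio of -0.40, SLC37A4 stayed apart at -1.57, and PCK2 came to stand apart as higher. At 15 µM, 4 of 9 stood apart (30.9% of all genes). PCK2 was 2.83-fold higher (2.02 to 4.06), PCK1 at least 2.48-fold and IGFBP1 at least 2.11-fold higher, and SLC37A4 3.85-fold lower (2.66 to 5.62). GOT1 was 1.75-fold higher (1.42 to 2.17), which passed 2-fold with the trend removed. With arsenic and copper, 1 of 9 stood apart (16.4% of all genes), PCK2 at 4.87-fold (3.51 to 6.93).

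Against 5 µM arsenic itself, 15 µM stood apart for 5 of 9 genes, all higher, where 37.1% of all genes did. PCK1 was 8.43-fold higher (2.05 to 74.4), PPARGC1A 4.78-fold (1.38 to 25.4), GOT1 2.64-fold (2.21 to 3.16), PC 2.53-fold (2.27 to 2.81) and IGFBP1 at least 4.78-fold. Copper added to 5 µM arsenic came with 4 of 9 apart and higher (30.2% of all genes). These were PPARGC1A at 4.07-fold (1.14 to 22.1), PC at 3.34-fold (3.02 to 3.71), PCK2 at 3.06-fold (2.53 to 3.71) and SLC37A4 at 2.43-fold (1.68 to 3.56). Both pairs rest on the 5 µM arsenic library, and with the trend removed PC and GOT1 no longer stood apart in the first and only PPARGC1A did in the second.

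Across the 3 arsenic libraries and the 6 others, TAT alone of the 9 did not overlap and was higher (3.9% of all tested genes). Against the 4 libraries without arsenic or caffeine, PCK1, PCK2 and TAT did not overlap and were higher (6.97% of all genes). The model put 7 of 9 genes higher with arsenic and 2 lower, with a median log2 fold change of 1.19 against 0.071 over all genes, and called 0 of 9 by edgeR (0.494% of all genes) and 0 by DESeq2 (0.932%), which gave FBP1 and IGFBP1 no adjusted p. Unadjusted p was under 0.05 for PCK1 and PCK2 in edgeR. PCK2 had a log2 fold change of 2.09 (SE 0.728, edgeR adjusted p 0.242), PCK1 5.54 (SE 2.37, adjusted p 0.433), TAT 1.19 (SE 0.911, adjusted p 0.765) and SLC37A4 -1.27 (SE 0.651, adjusted p 0.571). Without the 5 µM arsenic library, edgeR called PCK2 (2.38, adjusted p 0.0153), and over all alternatives its adjusted p ran from 0.0153 to 0.603.

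**Figure D3:**
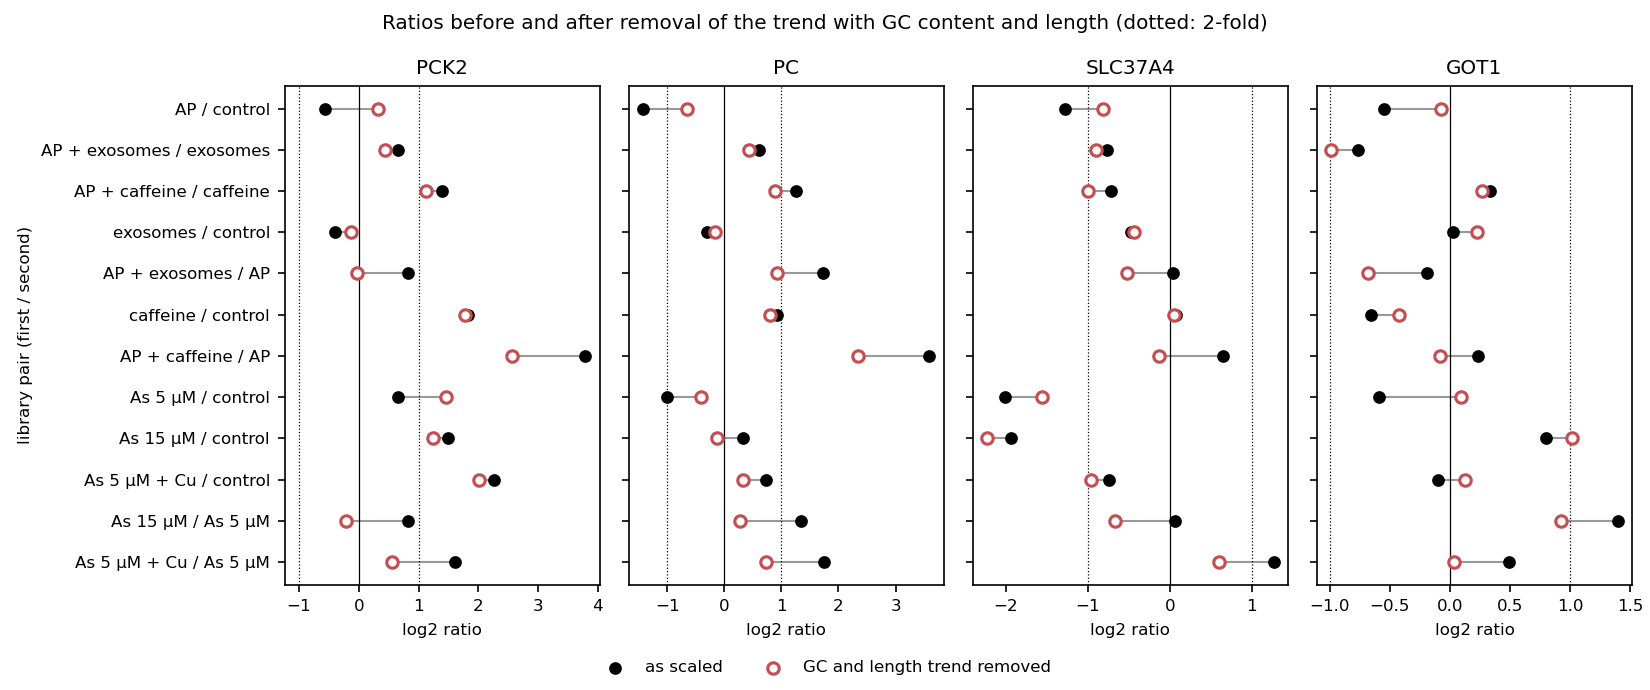
log2 ratio (horizontal axes, dotted lines at 2-fold) of PCK2, PC, SLC37A4 and GOT1 in the 12 library pairs (rows; AP, acetaminophen; As, arsenic; Cu, copper). Filled points are TMM-scaled ratios and open points the same with the trend in GC content and length removed; the points of PC and PCK2 lie farthest apart in pairs with the acetaminophen or 5 µM arsenic library.

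Terms for departure from additivity, each resting on 1 library and added 1 at a time, called 0 of the 9 genes. Of all genes they called 0% for acetaminophen by exosomes, 0% for acetaminophen by caffeine, 1.09% for 15 µM arsenic beyond arsenic and 0% for copper beyond arsenic. For acetaminophen by caffeine, PC had a term of 1.66 on the log2 scale (SE 1.53, edgeR adjusted p 1) and PCK2 1.35 (SE 1.35, adjusted p 1). For the higher arsenic dose, 1 of 9 had an unadjusted p under 0.05, IGFBP1 at 3.84 (SE 1.66, adjusted p 0.347), and PCK1 was at 1.86 (SE 1.01, adjusted p 0.542).

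Ratios of counts between 2 genes of 1 library need no scaling between libraries. Both were chosen after the levels had been seen and are a description. PC and PCK2, which act in sequence in mitochondria and have similar GC content, stood at 10.6 PC counts per PCK2 count in the control (95% interval 7.62 to 15.1), 11.3 with exosomes (9.18 to 14.1) and 11.1 with acetaminophen and exosomes (7.81 to 16.1). The ratio was 5.89 with acetaminophen (4.12 to 8.64), 5.55 with caffeine (5.22 to 5.92) and 5.08 with both (4.84 to 5.34). It was 3.31 with 5 µM arsenic (2.74 to 4.03), 4.71 with 15 µM (4.15 to 5.36) and 3.62 with arsenic and copper (3.28 to 4.01). The intervals of the 5 libraries with caffeine or arsenic lay below that of the control, so PCK2 was higher relative to PC in each of them, and that of acetaminophen overlapped it. PCK1 stood at 27.3 counts per 100 PCK2 counts with caffeine (24.1 to 31.0), 1.38 with acetaminophen and caffeine (0.901 to 2.03) and 6.73 with 15 µM arsenic (4.05 to 10.6). In the control, with 0 PCK1 counts, the 95% interval reached 9.92 per 100, so the caffeine library lay above every other interval.

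**Figure D4:**
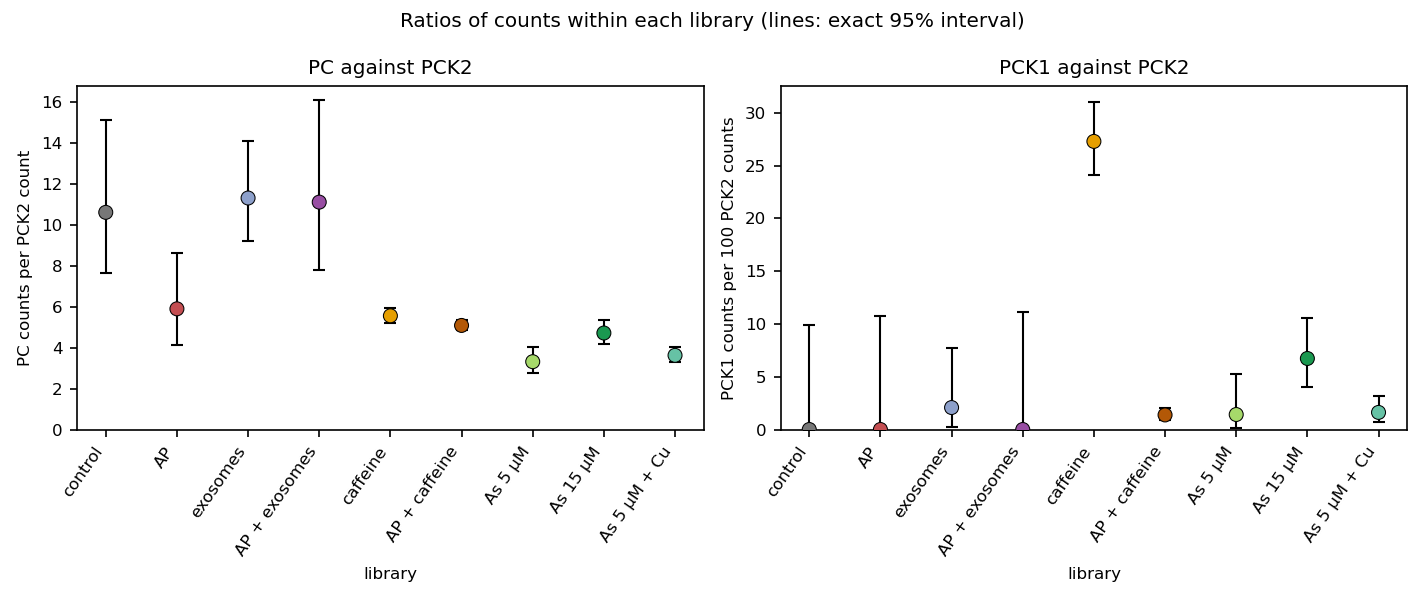
Counts of PC per PCK2 count (left) and of PCK1 per 100 PCK2 counts (right) within each of the 9 libraries (horizontal axes; AP, acetaminophen; As, arsenic; Cu, copper). Points are single libraries and lines exact 95% intervals; on the left the libraries with caffeine or arsenic lie between 3.31 and 5.55, and on the right caffeine stands at 27.3.

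Among 28 tested genes of cAMP and CREB signalling, 1 was called with caffeine by edgeR, where 0.0823% of all genes were called. It was RAPGEF4, a cAMP-activated exchange factor (log2 fold change -4.34, SE 0.838, edgeR adjusted p 0.0219). Its level was 1.40 CPM with caffeine and 2.07 with acetaminophen and caffeine, against 26.7 to 130.8 CPM in the 4 libraries without caffeine or arsenic and 3.71 to 15.4 CPM with arsenic. With caffeine 16 of the 28 were higher and 12 lower (median 0.153, all genes 0.121). ADCY5, an adenylyl cyclase, had 12.99 and 9.05 CPM in the caffeine libraries and 0.965 to 2.54 CPM in those 4, and CRTC1, a CREB coactivator, 39.1 and 38.5 CPM against 7.02 to 11.4 CPM. Neither was called (adjusted p 0.483 and 0.320). ADCY5 was higher still with 15 µM arsenic, at 22.9 CPM.

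Of 10 immediate cAMP-CREB targets, 9 were higher with caffeine in the additive model and 0 were called (median 1.06, smallest edgeR adjusted p 0.544). Against the control, caffeine alone came with a median log2 ratio of 0.257, with 2 apart as higher (20.2% of all genes apart). Against acetaminophen, acetaminophen with caffeine came with a median of 1.78, with 7 apart as higher (33.8% of all genes apart). KLF15 was at 28.7 and 36.9 CPM in the caffeine libraries against 5.09 to 9.85 CPM in the 4 without caffeine or arsenic and 13.6 to 49.5 CPM with arsenic, and PER1, a clock gene, at 39.8 and 70.1 CPM against 13.5 to 18.9 CPM. With arsenic 3 of 10 were called (0.494% of all genes), all higher (median 2.21): the nuclear receptor NR4A1 (5.98, SE 1.23, adjusted p 0.0144), the phosphatase DUSP1 (4.23, SE 1.00, adjusted p 0.0381) and FOS (5.45, SE 1.31, adjusted p 0.0435), the last named after its value was seen. These calls, and those with arsenic in the other lists, are of the main edgeR model. Far fewer genes were called with arsenic from protein-coding genes alone or with DESeq2 size factors, as given below. NR4A1 reached 1298 CPM at 15 µM against 23.4 at 5 µM and 154.7 with copper. As scaled, the doses differed in direction. Against the control the median log2 ratio of the 10 genes was -0.763 at 5 µM, with 2 apart as higher and 3 as lower (31.4% of all genes apart). At 15 µM it was 3.06, with 7 apart as higher (30.9% of all genes apart). The GC and length trend was not removed here, and its part in the 5 µM value was not tested.

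In the insulin, FOXO and glucocorticoid list, 1 of 27 tested genes was called with arsenic, where 0.494% of all genes were called. It was IRS2, the insulin receptor substrate that fasting induces (log2 fold change 5.58, SE 1.12, edgeR adjusted p 0.0140). IRS2 had 0 counts in the control, 31.1 CPM with caffeine, 97.1 with acetaminophen and caffeine, 10.6 with 5 µM arsenic, 125.2 with 15 µM and 32.6 with copper. With caffeine 21 of 27 were higher and 0 were called (median 0.473), and IRS2 came nearest (4.64, SE 1.02, adjusted p 0.0608). CEBPA, a liver factor upstream of PCK1, stood at 26.1 and 21.9 CPM with caffeine against 0 to 8.68 CPM in the 4 libraries without caffeine or arsenic (adjusted p 0.433). IGFBP2, a binding protein related to IGFBP1, was lower, at 1.75 and 6.03 CPM against 14.0 to 27.4 CPM (-2.83, SE 0.815, edgeR adjusted p 0.222).

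Other genes of gluconeogenesis were split in direction. Of 24 tested genes on a list of other gluconeogenic, shuttle and substrate-entry genes, 12 were higher and 12 lower with caffeine (median 0.054) and 0 were called. With arsenic 8 were higher and 16 lower (median -0.237), 0 called. MPC1, a subunit of the mitochondrial pyruvate carrier, stood at 22.5, 8.96 and 14.8 CPM in the 3 arsenic libraries against 49.2 CPM in the control (log2 fold change -1.44, SE 0.657, edgeR adjusted p 0.487). The libraries without arsenic ran from 24.5 CPM (exosomes) to 58.6 CPM (acetaminophen and caffeine). With acetaminophen 3 were higher and 21 lower (median -0.311), 0 called.

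PCK2 is also known as a target of the amino acid stress factor ATF4. In that list 11 of 11 tested genes were higher with arsenic (median 2.73), and 3 were called (0.494% of all genes): SESN2 (5.05, SE 1.07, edgeR adjusted p 0.0170), ATF3 (5.04, SE 1.02, adjusted p 0.0140) and CHAC1 (4.83, SE 0.970, adjusted p 0.0140). SESN2 went from 33.8 CPM in the control to 85.5, 2185 and 327.2 CPM with 5 µM, 15 µM and 5 µM arsenic with copper. PCK2 itself had its highest arsenic level with copper and not at 15 µM. With caffeine 9 of the 11 were higher in the additive model (median 0.637) and 0 were called. Against the control, caffeine alone came with a median log2 ratio of 0.276 and 0 of the 11 apart (20.2% of all genes apart). PCK2 was highest in the acetaminophen and caffeine library. There 7 of the 11 stood apart as higher than with caffeine alone (median log2 ratio 1.07), where 25.6% of all genes stood apart. Against acetaminophen alone, 7 of the 11 stood apart as higher and 1 as lower (median 1.59), where 33.8% of all genes did. SESN2 was at 203.7 CPM in the acetaminophen and caffeine library, CHAC1 at 82.7 and ATF3 at 62.2. TRIB3 and SHMT2, of the same list, were lower there than with caffeine alone, at 59.4 and 183.2 CPM against 114.3 and 217.1. The GC and length trend was not removed from these ratios, and a part of ATF4 in the PCK2 levels was not tested.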

How the data were processed

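Total RNA from HuH-7 cells was depleted of ribosomal RNA and made into Ion Torrent libraries, per the labels' protocols. For each Ensembl gene the authors deposited its raw read count, made with TopHat2 2.0.13, HTSeq 0.6.1 and GRCh37 per the submitters' processing notes. The sources used here do not give the annotation release, the strand setting or the read filters. HTSeq's summary lines, which held 42.3% to 70.3% of a library's reads, were left out. Symbols, exon lengths and overlaps came from GENCODE 29 (52526 of 63677 identifiers matched) and are on GRCh38.

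Genes that reached 1 CPM in 2 or more libraries were kept, and TMM factors were applied to the total gene counts. edgeR 4.0.16 (R 4.3.3) fitted an additive quasi-likelihood model with 4 factors over the 9 libraries, leaving 4 residual degrees of freedom (3 with an extra term), with Benjamini-Hochberg adjustment over all tested genes and a threshold of 0.05. The SE given is the log2 fold change divided by the square root of its F statistic. Pair intervals are exact conditional binomial intervals at 95%, and those of a level are exact Poisson intervals, covering counting error only. For a fold against a library at 0 counts, that library is taken at 3 counts. Error in the other count is left out, so the exact lower 95% limit is given beside it. DESeq2 1.42.0, other scalings, no filter, protein-coding genes alone, removal of the GC and length trend, a prior of 2 counts and left-out libraries were tried as alternatives. Scripts were tested on simulated data.

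All 10 genes are described. From each other list, up to 4 genes were named, averaging 5 CPM or more and standing apart in the same direction in every pair of a factor, by size of the fold change. The genes, the lists and the tests were chosen with earlier results of these data known. The labels name no separate cultures, so p-values measure the spread between these libraries, which may be technical. A few genes that these rules would name are not reported here.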

Additional observations from a re-analysis of the deposited data

Results flagged for a closer look

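PC differed in opposite directions with acetaminophen on 2 backgrounds. Without another treatment it was lower (log2 ratio -1.42, 148.8 against 398.5 CPM), and on caffeine it was higher (log2 ratio 1.26, 1800 against 753.8 CPM). The test of the difference itself, the acetaminophen by caffeine term, gave 1.66 on the log2 scale (SE 1.53, edgeR adjusted p 1). With the GC and length trend removed the ratios were -0.65 and 0.89, still opposite in sign and neither past 2-fold.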

How the results depend on the processing

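Counts of called genes depended on the processing, and the cause was not tested. Over all genes, where edgeR called 4 for acetaminophen, 0 for exosomes, 15 for caffeine and 90 for arsenic, the counts in that order were 46, 0, 49 and 269 without a count filter, 49, 0, 51 and 170 with DESeq2, and 2, 0, 3 and 1 with protein-coding genes alone. DESeq2 size factors gave 7 for caffeine and 24 for arsenic. With protein-coding genes alone, at most 1 of the list genes named as called with arsenic can therefore have been called. The 6 libraries without arsenic gave 240 for acetaminophen, 3 for exosomes and 275 for caffeine. Without the acetaminophen and 5 µM arsenic libraries, an alternative chosen after seeing the data, there were 57 for acetaminophen and 72 for caffeine. Leaving out 1 library at a time gave 0 to 179 for acetaminophen, 0 to 3 for exosomes, 0 to 221 for caffeine and 0 to 778 for arsenic. Of the 9 genes, none was called for acetaminophen or exosomes under any of these. For caffeine 1 was called without a count filter (PCK1), 1 with DESeq2 (PCK2), 2 in the 6 libraries without arsenic, 1 in the alternative added later (PCK1), and 0 to 2 with 1 library left out. For arsenic 0 to 1 was called with 1 library left out, the 1 being PCK2 without the 5 µM library.

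Removing the GC and length trend changed the number of genes apart from 2 to 1 for acetaminophen against control (TAT), from 1 to 0 for exosomes added to acetaminophen, from 2 to 4 for caffeine against control (with FBP1 and IGFBP1), from 5 to 3 for the arsenic doses and from 4 to 1 for copper added to arsenic. The other 55 such counts stayed within 1.5 times.

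Signs changed for uncalled fold changes alone. With acetaminophen, log2 values ran from -0.43 to 0.93 for PC and from -0.49 to 0.18 for PPARGC1A with 1 library left out, and PPARGC1A was at -0.02 without a filter. With exosomes they ran from -0.57 to 1.03 for PCK2, -0.45 to 1.90 for PC, -0.49 to 0.04 for SLC37A4, -0.43 to 0.33 for PPARGC1A, -0.44 to 1.27 for TAT, -0.43 to 0.25 for GOT1 and -2.35 to 4.84 for IGFBP1. In the alternative added later PCK2, PC and TAT were at -0.68, -0.57 and -0.55 with exosomes and SLC37A4 at -0.0026 with caffeine, and PPARGC1A was at 0.0054 with exosomes in the 6 libraries without arsenic. With caffeine they ran from -0.35 to 2.22 for FBP1, -0.68 to 0.98 for TAT and -0.65 to 0.30 for GOT1, and TAT was at 0.03 without a filter. With arsenic they ran from -0.21 to 0.51 for GOT1 and -0.49 to 5.99 for IGFBP1. The other 500 fold changes recomputed kept their sign. Depth limits PCK1, G6PC1, FBP1, PPARGC1A and IGFBP1, which had under 10 counts in at least 5 libraries. No paired analysis was possible because the labels give no replicate numbers to use as a block; the additive terms already compare acetaminophen within its 3 backgrounds.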

Other observations

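Amino acid breakdown feeds carbon into gluconeogenesis, and TAT belongs to the same tyrosine route as HPD. Of 12 tested genes of a list for this, 8 were lower and 4 higher with acetaminophen (median log2 fold change -0.523, 0 called by edgeR, 6 with an unadjusted p under 0.05). HAL, histidine ammonia-lyase, stood at 29.9, 19.7 and 29.6 CPM in the control, exosome and caffeine libraries and at 2.81, 8.90 and 1.70 CPM in the same order with acetaminophen added (log2 fold change -2.92, SE 0.737, edgeR adjusted p 0.132). AGXT, an alanine-glyoxylate aminotransferase, stood at 58.9 CPM with caffeine and 7.35 with acetaminophen and caffeine, and PCK1 and FBP1 were likewise lower in the second library. With arsenic 1 of the 12 was called and higher, where 0.494% of all genes were called. It was HPD, the enzyme after TAT in tyrosine breakdown (6.18, SE 1.22, edgeR adjusted p 0.0140). HPD stood at 8.08, 158.5 and 59.7 CPM with 5 µM arsenic, 15 µM arsenic and arsenic with copper against 0.965 CPM in the control.

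The genes whose profile over the 9 libraries was most like that of each well-measured gene were found by Pearson's r of log2(CPM + 1) among 11147 genes, as a description, since the points share depth and base composition. For PCK2 they included KDM4B (0.973) and SFXN5 (0.958), and for PC they were PNPLA6 (0.983), PCNX3 (0.977) and SLC38A10 (0.975). SLC37A4 was most like CDKN2C (0.989), CLRN3 (0.944) and MDH2 (0.941). For TAT they were CCND1 (0.933), SHMT2 (0.931) and MYL12B (0.923), and for GOT1 ZNF473 (0.953), FHL3 (0.953) and KRT23 (0.946).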
